A study of Mus musculus with 4 samples.

Results

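Hox genes and limb identity factors were read in whole normal skeletal muscle, the only tissue of the series analysed here. The members were 34 genes, taken by symbol alone: every gene called Hoxa, Hoxb, Hoxc or Hoxd with a number, and Pitx1, Tbx4 and Tbx5. They made up 34 of the 12393 genes with a probe set of their own, and 31 of them were Hox genes. The 4 samples, titled nm7, nm8, skm4 and skm5, were all bulk normal muscle of wild type mice of a mixed 129S4/SvJae and C57BL/6 strain, untreated as far as the labels say. The labels give no age and no muscle of origin, nor do they tell whether each sample is its own animal. Spread and p-values below therefore measure these samples alone and may be partly technical. The series itself concerns sarcomas started in muscle, which were not analysed here. Values are log2 expression values, on which a difference of 1 is 2-fold.

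Hox genes encode homeodomain transcription factors that give cells their position along the body axis and along the limb. In mammals they lie in 4 clusters, A to D, and are numbered by paralogue group from one end of a cluster to the other: low numbers act towards the head, and high numbers towards the tail and the tips of the limbs. Adult cells of the limb and trunk, including fibroblasts and muscle cells, keep part of the Hox pattern of the place they came from. Pitx1 and Tbx4 set hindlimb identity, while Tbx5 starts the forelimb, and Hoxc4, Hoxc5 and Hoxc6 are associated with the forelimb level of the axis.

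Of the 39 Hox genes of the RefSeq table, 31 were measured through a probe set of a single gene. Hoxb8, Hoxd3 and Hoxd4 shared their probe sets with a neighbour and were not used, and the remaining genes, among them Hoxc10 and Hoxc11, were not analysed here. The hindlimb list therefore held Pitx1 and Tbx4 without Hoxc10 and Hoxc11, the genes of that pattern in the C cluster.

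Upstream sequence of the members is often rich in CpG, the pair of bases at which DNA is methylated and which marks many developmental promoters. RefSeq promoter windows of the GRCm38.p6 assembly covered 19 of the 34 members in 21 windows, cut here to the 250 bases before the start. They held a median of 13 CpG, from 2 to 35, against a median of 6 over all 32851 windows, and 16 of the 21 were above that median. The windows below belong to 3 sets taken up in the results: Hoxa11, with a range over 1 between samples, Hoxd8 and Hoxd9, neighbours in the D cluster, and Hoxa13 and Hoxd13 of the last paralogue group. They are written 5′ to 3′ along the gene's strand, with each CpG in capitals.
Hoxa11, chr6:52245811-52246060, minus strand: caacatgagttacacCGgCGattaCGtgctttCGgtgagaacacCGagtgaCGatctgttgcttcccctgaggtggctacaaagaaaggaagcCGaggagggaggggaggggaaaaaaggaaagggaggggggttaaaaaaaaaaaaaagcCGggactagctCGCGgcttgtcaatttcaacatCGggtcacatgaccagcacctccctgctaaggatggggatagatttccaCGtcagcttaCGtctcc
Hoxd8, chr2:74704365-74704614, plus strand: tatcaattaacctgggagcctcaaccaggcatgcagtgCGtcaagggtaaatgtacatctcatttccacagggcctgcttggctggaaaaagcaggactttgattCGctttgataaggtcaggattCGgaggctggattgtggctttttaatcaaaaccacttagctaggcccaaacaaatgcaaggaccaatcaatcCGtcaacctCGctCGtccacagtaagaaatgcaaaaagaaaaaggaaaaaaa
Hoxd9, chr2:74697513-74697762, plus strand: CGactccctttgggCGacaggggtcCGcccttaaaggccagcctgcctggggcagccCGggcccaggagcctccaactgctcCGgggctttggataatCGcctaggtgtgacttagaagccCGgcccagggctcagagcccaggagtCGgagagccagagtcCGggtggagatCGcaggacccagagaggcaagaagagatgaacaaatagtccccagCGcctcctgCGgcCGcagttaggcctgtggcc
Hoxa13, chr6:52260881-52261130, minus strand: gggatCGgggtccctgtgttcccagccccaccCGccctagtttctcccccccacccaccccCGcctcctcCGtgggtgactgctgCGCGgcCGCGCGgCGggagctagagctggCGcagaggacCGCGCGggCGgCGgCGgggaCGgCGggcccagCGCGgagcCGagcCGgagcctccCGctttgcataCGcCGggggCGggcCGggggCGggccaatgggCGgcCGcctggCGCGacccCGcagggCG
Hoxd13, chr2:74667975-74668224, plus strand: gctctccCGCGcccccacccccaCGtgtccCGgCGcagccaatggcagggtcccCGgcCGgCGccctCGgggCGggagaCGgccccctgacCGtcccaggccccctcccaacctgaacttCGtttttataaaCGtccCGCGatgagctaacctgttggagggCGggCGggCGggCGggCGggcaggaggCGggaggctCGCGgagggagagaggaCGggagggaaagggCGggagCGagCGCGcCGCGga
The Hoxa13 and Hoxd13 windows held 35 and 31 CpG, more than in 97.0% and 94.8% of all windows. The Hoxd8 window held 6 CpG, no more than the median of all windows, and the Hoxa11 and Hoxd9 windows held 13 each. Both strands were searched for TATAAA, found in 3 of the 21 windows (14.3%) and in 12.4% of all, for TGATNNAT, a form of the joint site of Hox and Pbx proteins, found in 3 (14.3%) and in 7.68% of all, and for CCAAT, found in 10 (47.6%) and in 33.8% of all. No match of one motif overlapped a match of another in the members' windows. A match is a description of letters and was not tied to any value below.

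A pair of measures places the members on the scale of the arrays, neither of them a detection test, since probe sets differ in affinity. TrpnX control probe sets match a bacterial transcript that mouse muscle lacks, and their highest value per array was 3.79 to 4.05. In all 4 samples 31 of the 34 members read above them, as did 96.5% of all genes. Hoxd1 was above them in 0 samples, at 3.61 to 3.79, Hoxb1 in 2 and Hoxd11 in 3. Against the median of all genes on the same array, 7.81 to 7.88, 6 members were higher in all 4 samples, while 46% of all genes were. These 6 were Hoxa9, Hoxa10, Hoxc6, Hoxc9, Hoxd8 and Hoxd9, all from the middle to the back of their clusters, and 27 members were below the median in all 4. Hoxa7 was above it in 1 sample, skm5, at 8.08. Near the background RMA compresses differences, so the spread of the dimmest members may be understated, which was not tested.

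**Figure D1:**
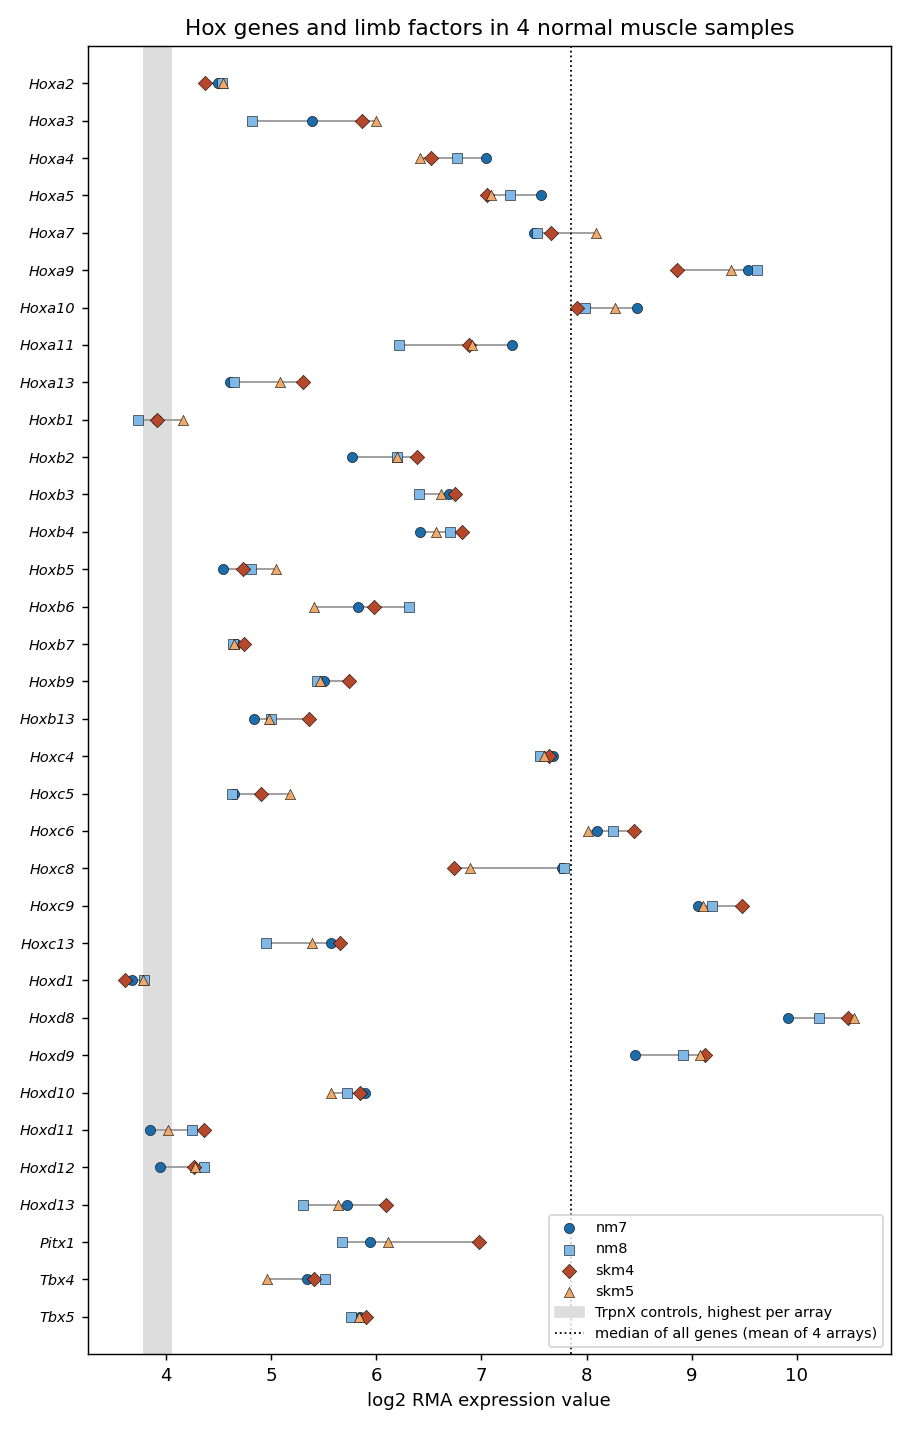
The plot gives the log2 RMA value of each of the 34 members (rows, by cluster and paralogue group) in nm7, nm8, skm4 and skm5, with the grey band for the highest TrpnX control per array (3.79 to 4.05) and the dotted line for the median of all genes. Most genes keep their 4 points close together, and Hoxa3, Hoxa11, Hoxc8 and Pitx1 spread over more than 1 unit.

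The members varied between samples somewhat more than all genes did. Their median SD was 0.24 (n = 4 samples), beside 0.19 over all genes. The comparison was not matched for level, and 27 of the 34 members lay below the array median in all 4 samples. Whether their level accounts for the wider spread was not tested. The range over the 4 samples was under 0.5 for 13 members and 0.5 to 1 for 17. It passed 1, or 2-fold, for 4 members, Pitx1, Hoxa3, Hoxa11 and Hoxc8, which is 11.8% of the members beside 5.98% of all genes. That number was 2 without nm8, when Hoxa3 (range 0.61) and Hoxa11 (0.41) dropped out, and 2 without skm4, when Pitx1 (0.44) and Hoxc8 (0.89) did. It was 3 without nm7, where the range of Hoxa11 was 0.69, and 4 without skm5.

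Pitx1, the homeodomain factor that turns a limb bud into a hindlimb, read 5.94 and 5.67 in nm7 and nm8, and 6.98 and 6.11 in skm4 and skm5. Only skm4 stood above the rest, by more than the spread of the other 3. Another Pitx1 probe set, with a lower mean, read 5.97, 6.12, 6.18 and 5.71 in the same order, so skm4 was highest on both but by far less on this one. Tbx4, the T-box factor that acts downstream of Pitx1 in hindlimb outgrowth, read 5.34 and 5.52 in nm7 and nm8, and 5.41 and 4.96 in skm4 and skm5. It was lowest in skm5 and close together in the other samples, and did not follow Pitx1 into skm4. Tbx5, its forelimb counterpart, read 5.85 and 5.76 in nm7 and nm8, and 5.90 and 5.83 in skm4 and skm5, with an SD of 0.06. The other Tbx5 probe set read 5.63, 5.45, 5.07 and 5.06 in that order, lower in both skm samples, so the flat profile of Tbx5 held for 1 of its 2 probe sets. All readings of the 3 factors lay above the TrpnX controls and below the array medians.

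The forelimb-level genes of the C cluster differed in how steady they were. Hoxc4 read 7.68 and 7.56 in nm7 and nm8, and 7.64 and 7.59 in skm4 and skm5, an SD of 0.05. Hoxc6 read 8.10, 8.25, 8.45 and 8.01 in the same order, with skm4 highest. Hoxc5 read 4.65, 4.63, 4.90 and 5.18, higher in both skm samples than in both nm samples. Each gene was also set against its own mean. The forelimb list of Tbx5, Hoxc4, Hoxc5 and Hoxc6 then had a median deviation of -0.04 and -0.07 in nm7 and nm8, and 0.06 and -0.01 in skm4 and skm5. The hindlimb pair of Pitx1 and Tbx4 had -0.10, -0.15, 0.45 and -0.21, where the value in skm4 is the midpoint of Pitx1 and Tbx4 and comes from Pitx1. In skm4 all 4 forelimb genes and both of the hindlimb pair lay above their own means, while in skm5 1 of 4 and 0 of 2 did. Over all 34 members, 24 lay above their own mean in skm4 and 16 in skm5, so a lean to skm4 was not particular to these lists. The shares over all genes were not computed. Tbx4 was highest in nm8 and Pitx1 in skm4.

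Anterior Hox genes, of groups 1 to 4, all read below the array medians and were mostly steady. Hoxa3 spread most, with an SD of 0.54, followed by Hoxa4 (0.28) and Hoxb2 (0.26). Hoxa3, which patterns the pharyngeal arches and neck, read 5.39 and 4.82 in nm7 and nm8, and 5.86 and 6.00 in skm4 and skm5. The prefixes did not overlap, and nm8 was lowest. Its other probe set read 5.33, 4.99, 5.17 and 5.27, with nm8 lowest again but a range well under that of the first. Hoxa4 read 7.05 and 6.76 in nm7 and nm8, and 6.52 and 6.42 in skm4 and skm5, lower in both skm samples. Hoxb2 read 5.77, 6.20, 6.38 and 6.20, lowest in nm7. Hoxa2, a gene of the hindbrain and second arch, stayed between 4.37 and 4.54, Hoxb3 between 6.40 and 6.75, and Hoxb4 between 6.41 and 6.82. The 9 anterior genes had a median SD of 0.17.

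Central Hox genes, of groups 5 to 8, held the member with the widest gap between prefixes. Hoxc8, which patterns the thoracic level, read 7.77 and 7.78 in nm7 and nm8, and 6.73 and 6.89 in skm4 and skm5. Both nm samples were high and nearly equal, both skm samples were low, and the gap of 0.87 between them was several times the spread within either prefix. Hoxd8 read 9.91 and 10.21 in nm7 and nm8, and 10.48 and 10.54 in skm4 and skm5, and its neighbour Hoxd9 read 8.46, 8.92, 9.13 and 9.08. This pair, picked after its values were seen, was lowest in nm7 and higher in both skm samples than in either nm sample. Hoxa5 read 7.57 and 7.27 in nm7 and nm8, and 7.05 and 7.09 in skm4 and skm5, lower in skm, while Hoxa7 read 7.50, 7.53, 7.66 and 8.08, higher there. Hoxb6 went from 6.31 in nm8 to 5.40 in skm5, a range of 0.91 and the widest below 1, with its prefixes overlapping. Hoxb5 stayed between 4.54 and 5.05, and Hoxb7 between 4.63 and 4.74, the smallest range of any member, 0.11.

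Posterior Hox genes, of groups 9 to 13, were most often highest in skm4. In that sample 8 of the 13 read highest and 11 lay above their own mean, beside 3 highest in nm7, 2 in nm8 and 0 in skm5. Over all 34 members, 15 were highest in skm4, 6 in nm7, 6 in nm8 and 7 in skm5. The share of all genes that read highest in skm4 was not computed, so these counts have no background beside them. All 4 genes of group 13, which act at the tips of limbs and the end of the trunk, were highest in skm4, a pattern noticed in the values. Hoxa13 read 4.61 and 4.65 in nm7 and nm8, and 5.31 and 5.08 in skm4 and skm5. Hoxb13 read 4.84, 4.99, 5.36 and 4.98, and Hoxc13 read 5.57, 4.95, 5.65 and 5.39. Hoxd13, needed for digits, read 5.72, 5.31, 6.09 and 5.64. The lead of skm4 over the next sample was 0.22 for Hoxa13, 0.36 for Hoxb13, 0.08 for Hoxc13 and 0.37 for Hoxd13, so for Hoxc13 it was small. All 4 genes read below the array medians in every sample.

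Of the 4 posterior genes above the array median in all samples, Hoxc9 and Hoxd9 were also highest in skm4, while Hoxa9 and Hoxa10 were lowest there. Hoxa9 read 9.53 and 9.62 in nm7 and nm8, and 8.85 and 9.37 in skm4 and skm5, while its dimmer probe set read 7.20, 7.55, 7.70 and 7.57, highest in skm4. Hoxc9 read 9.06, 9.19, 9.48 and 9.10. Hoxa10 read 8.48, 7.99, 7.91 and 8.27, with nm7 highest and the prefixes overlapping. Hoxa11, a gene of the middle segment of the limb, read 7.29 and 6.22 in nm7 and nm8, and 6.88 and 6.91 in skm4 and skm5, with nm8 lowest and nm7 highest. Its antisense transcript Hoxa11os, which is not a member, read 6.66, 6.74, 6.93 and 6.25, so nm8 was not low for it. Hoxd10 stayed between 5.57 and 5.89, Hoxb9 between 5.43 and 5.74, Hoxd12 between 3.94 and 4.36, and Hoxd11 between 3.85 and 4.36, the last 2 close to the TrpnX controls.

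**Figure D2:**
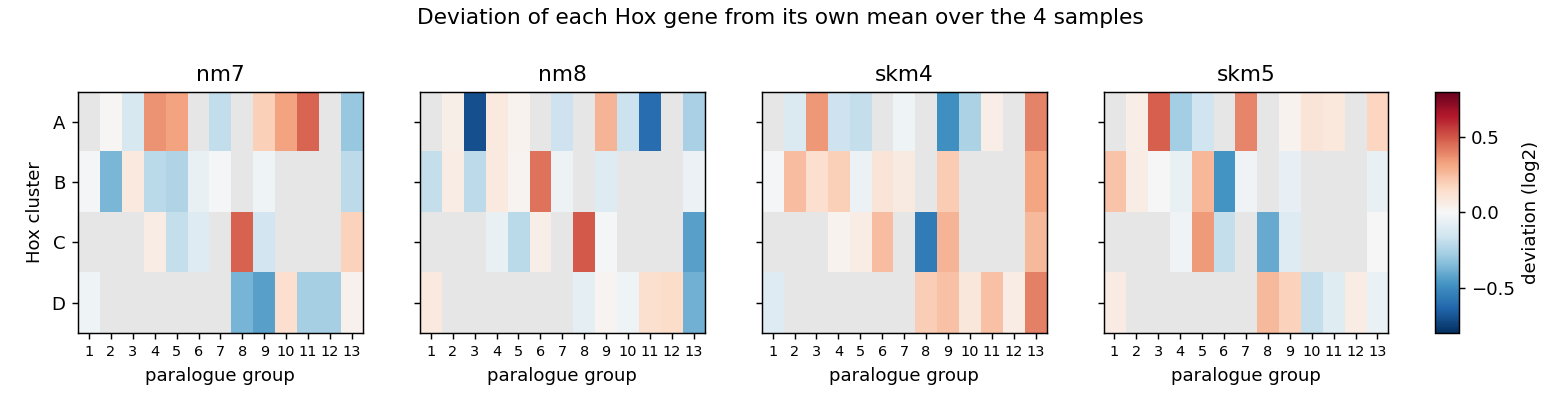
Each panel is a sample, with Hox clusters A to D as rows, paralogue groups 1 to 13 as columns, and colour for the log2 deviation of the gene from its own mean over the 4 samples (red higher, blue lower, grey not measured or no such gene). In skm4 the whole of column 13 is red, and Hoxc8 is red in both nm samples and blue in both skm samples.

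By cluster, the A genes were the most mixed and had a median SD of 0.28, beside 0.17 for B, 0.23 for C and 0.23 for D. In the A cluster 6 of 9 genes lay above their own mean in nm7 and 7 in skm5, while 3 did in skm4. In the B cluster 6 of 9 were highest in skm4 and 1 lay above its mean in nm7. In the D cluster 4 of 7 were lowest in nm7 and 6 lay above their mean in skm4. Over all 34 members, 14 lay above their own mean in nm7, 24 in skm4 and 16 in skm5. The shares over all genes were not computed.

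The title prefix is the only label that splits the samples, and its meaning is not given, so it was read as a possible batch and not as a study group. With limma across all 12393 genes, 0 of the 34 members passed an adjusted p of 0.05 between skm and nm, beside 0.0323% of all genes. At an unadjusted p under 0.05 there were 7 members (20.6%), beside 23.5% of all genes. The prefixes did not overlap for 12 members (35.3%), beside 54.4% of all genes. Of these, 8 were higher in skm (23.5%, beside 25.8% of all genes) and 4 lower (11.8%, beside 28.6%). The median difference of the members was 0.14, with 23 positive and 11 negative. Over all genes the median was -0.0034, with 49.5% positive. Without skm4 the members' median was 0.04.

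Hoxc8 came closest to the threshold, at -0.96 ± 0.12 (SE, 2 samples per prefix), 1.95-fold lower in skm, with limma's adjusted p = 0.0506. It passed in 5 of the alternative analyses, at adjusted p-values from 0.0176 to 0.0493, and leaving out 1 sample gave 0.0764 to 0.212 with differences of -1.04 to -0.88. Hoxc8 was lower in skm in every setting that kept it, and whether it was called rested on the setting. By the size of limma's t it ranked 78 among all 12393 genes, and other genes, among them Zfhx3, Lep and Myod1, shared its adjusted p. In the settings that called Hoxc8, the calls over all genes rose too, from 4 to between 92 and 1110. Hoxa13 differed by 0.57 ± 0.13 (limma, adjusted p = 0.093) and Hoxa3 by 0.83 ± 0.21 (limma, adjusted p = 0.105), which did not pass. The other Hoxa3 probe set differed by 0.06. Pitx1 differed by 0.74 ± 0.30 (limma, adjusted p = 0.211), and by 0.31 without skm4. Its other probe set differed by -0.10. Hoxa11 differed by 0.14 ± 0.34, and by -0.40 without nm8 and 0.68 without nm7. The differences were 0.40 ± 0.14 for Hoxc5, -0.24 ± 0.19 for Tbx4, 0.07 ± 0.12 for Tbx5, 0.06 ± 0.18 for Hoxc6 and 0.00 ± 0.12 for Hoxc4, whose sign turned with the scaling of the arrays. The remaining 24 members differed by -0.46 to 0.45, with a smallest adjusted p of 0.15 in limma.

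**Figure D3:**
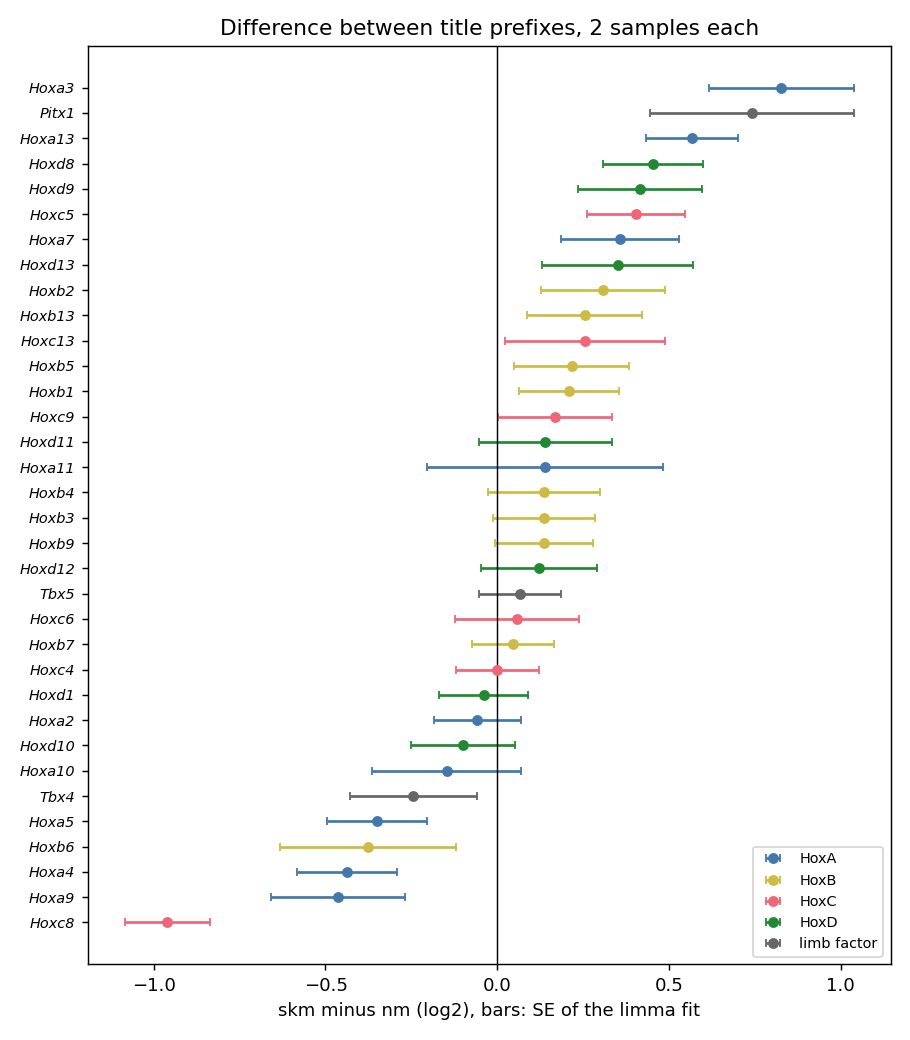
Points are the skm minus nm difference of each member on the log2 scale, ordered by size and coloured by cluster, with bars for the SE of the limma fit (2 samples per prefix). Hoxc8 lies apart at -0.96, and Hoxa3 (0.83) and Pitx1 (0.74) lead on the other side.

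Where several probe sets measured a member, they often disagreed on the difference between prefixes, for large differences as well as small ones. Of the 7 such genes, 2 (Hoxa3 and Hoxb4) had the same direction between prefixes on all their probe sets, and 1 (Pitx1) had the same highest sample on all. Pitx1 differed by 0.74 on the probe set used and by -0.10 on the other. In the same order, Hoxa4 differed by -0.44 and 0.05, Hoxa9 by -0.46 and 0.26, and Tbx5 by 0.07 and -0.47. The 3 probe sets of Hoxc6 gave -0.12 to 0.08. Hoxc8 and all 4 genes of group 13 had 1 probe set each, so this check was not open to them.

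**Figure D4:**
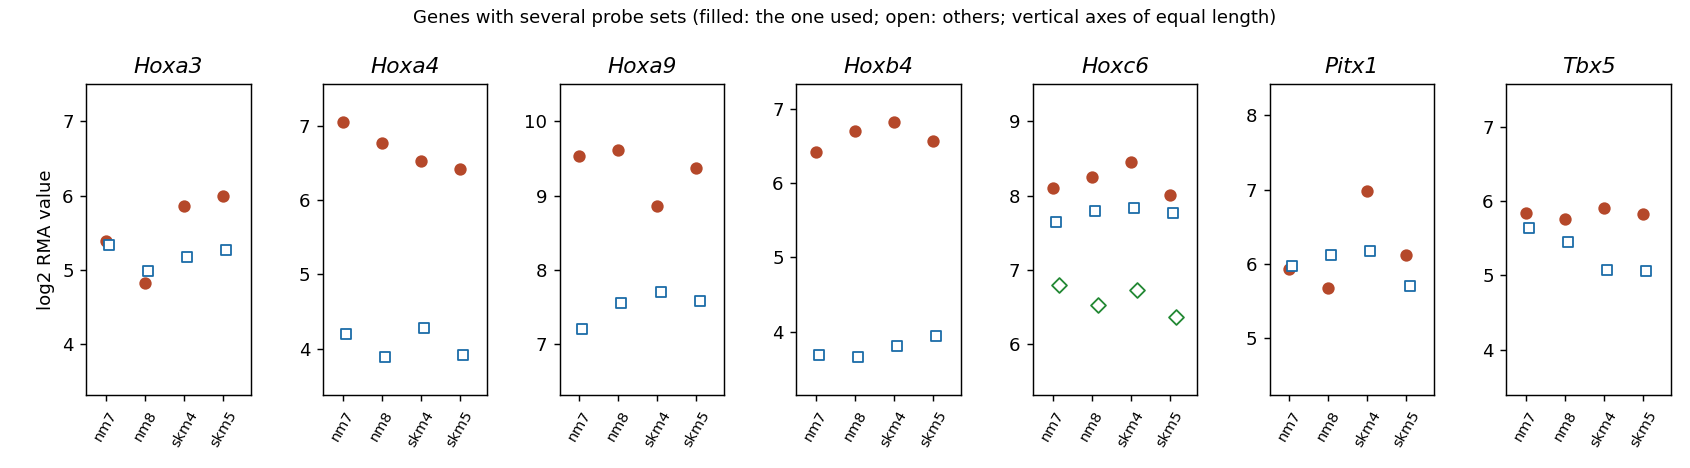
Each panel is a gene with several probe sets, with the 4 samples on the horizontal axis and log2 RMA values on vertical axes of equal length. Filled points are the probe set used and open points the others. The high skm4 value of Pitx1 is seen on the filled points, where it reads 6.98, and not on the open ones, where it reads 6.18.

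Markers of other cells moved between the samples too, and their part in the values above was not tested. In bulk tissue, fewer cells of a type and less RNA per cell cannot be told apart. The label of skeletal muscle fitted its markers: all 6, among them Acta1, the skeletal actin, and Pvalb, read 14.50 to 14.75, with a median SD of 0.04 and prefixes that overlapped for most. These readings lie near the highest value of each array, 14.74 to 14.76, where differences may be compressed. The small SD therefore does not show that the samples held equal amounts of muscle. Of the 3 heart markers, Myh6 read 4.33 to 5.14 and Nppa 4.98 to 5.39, both dim. Beside Hoxc8, 6 of 6 lymphocyte markers were lower in both skm samples, with summed linear values of 3143 and 3804 in nm7 and nm8, and 384 and 1327 in skm4 and skm5. Of 4 adipocyte markers 2 were lower there without overlap. The share of all genes lower in skm without overlap was 28.6%, the background for both lists. Lep, which encodes leptin, read 9.28, 9.55, 6.80 and 7.50. Adipoq, which encodes adiponectin, read 12.95, 12.92, 12.19 and 12.55. The prefixes overlapped for Fabp4, at 13.55, 13.47, 13.36 and 13.64, and for Cidec, at 10.19, 9.98, 9.88 and 10.30. Both were lowest in skm4 and highest in skm5, with differences between prefixes of -0.01 and 0.01. The summed adipocyte values were 21711, 20910, 16246 and 20241, and those of 6 fibroblast markers 45865, 41056, 37674 and 42638.

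Beside Hoxa11, tendon markers were lowest in nm8 as a list, with summed values of 10882 and 7250 in nm7 and nm8, and 9060 and 8779 in skm4 and skm5. Chad, a cartilage and tendon matrix gene, read 8.31, 6.76, 8.63 and 7.71, and Scx, the tendon transcription factor, 6.57, 5.96, 6.29 and 6.18. Fmod, the brightest of the list and so the largest part of the sums, read 12.80, 12.24, 12.40 and 12.22, lowest in skm5. Tnmd, Comp and Thbs4 were lowest in nm8, but Comp was highest in skm4, and Tnmd and Thbs4 in skm5. Keratinocyte markers were highest in skm5, with summed values of 752, 930, 795 and 2615, and 7 of 8 had a range over 1 (87.5%, beside 5.98% of all genes). Schwann cell markers summed to 7129, 6636, 4863 and 9470. Endothelial markers summed to 3302, 3237, 3974 and 4227 but were mixed, with a median difference of -0.01. Of the 5 genes 2 were higher in skm without overlap (40.0%, beside 25.8% of all genes) and 2 lower (40.0%, beside 28.6%). The differences were 1.31 for Pecam1, an adhesion molecule, 0.99 for Ramp2, -0.58 for Kdr, a VEGF receptor, and -0.16 for Cdh5, the endothelial cadherin. The satellite cell list included Chrna1, which muscle fibres also express, so its sums do not measure satellite cells alone. Those sums were 1713, 1677, 2417 and 2526, and the list was mixed too. Of its 5 genes 2, Myod1 and Chrna1, were higher in skm without overlap (40.0%, beside 25.8% of all genes). Pax7 was lower without overlap (20.0% of the list, beside 28.6%). Myod1, the muscle determination factor, differed by 1.24 and Chrna1, an acetylcholine receptor subunit, by 0.55, against -0.31 for Pax7, which marks satellite cells, and -0.11 for Myf5. None of these genes passed limma's adjusted threshold.

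Partners and regulators of Hox proteins were read as well. With limma over all genes, 0 members of any of these lists passed, in either direction. The list of partners held Pbx, Meis and Pknox proteins, which bind DNA with Hox proteins, as well as Gmnn, which binds Hox and Polycomb proteins, and Zfhx3, a large homeodomain protein. Of its 10 measured genes, 2 had an unadjusted p under 0.05 (20.0%, beside 23.5% of all genes). Zfhx3 read 9.94 and 9.91 in nm7 and nm8, and 9.07 and 9.09 in skm4 and skm5, a difference of -0.84 ± 0.11 (limma, adjusted p = 0.0506). Pknox1 differed by 0.41 ± 0.12 and Meis3 by 0.28 ± 0.12, and the list's median SD was 0.21.

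Polycomb proteins hold Hox genes silent and Trithorax proteins keep them active. Of 16 measured Polycomb genes, 6 had an unadjusted p under 0.05 (37.5%, beside 23.5% of all genes). Without overlap 9 were lower in skm (56.2%, beside 28.6%) and 3 higher (18.8%, beside 25.8%). Their median difference was -0.21, with Eed, the core subunit that reads the repressive mark, at -0.39 ± 0.12, Ezh2, its methyltransferase, at -0.40 ± 0.13 and Mtf2, a partner, at -0.40 ± 0.14. Of 7 measured Trithorax and boundary genes, 6 were lower in skm without overlap (85.7%) and 0 higher, and 2 had an unadjusted p under 0.05 (28.6%), with a median of -0.18. Kdm6a, a demethylase of the Polycomb mark, stood at -0.36 ± 0.12, Kmt2a, the methyltransferase long known for its hold on Hox genes, at -0.42 ± 0.16, and Ctcf, the boundary protein, at -0.23 ± 0.11.

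Retinoic acid sets the fronts of Hox expression in the embryo. Of 16 measured genes of this pathway and of axial patterning, 4 had an unadjusted p under 0.05 (25.0%, near the 23.5% of all genes). Rxra, a retinoid receptor, read 9.96 and 9.77 in skm4 and skm5, above both nm samples, a difference of 0.86 ± 0.13 (limma, adjusted p = 0.0562). Crabp1, which binds retinoic acid, differed by 0.58 ± 0.13 and Rarb, a receptor that retinoic acid induces, by -0.53 ± 0.12.

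Of 37 measured limb patterning genes, 8 had an unadjusted p under 0.05 (21.6%, beside 23.5% of all genes) and 2 had a range over 1 (5.4%, beside 5.98%). Epha7, a guidance receptor, read 5.78 and 5.43 in nm7 and nm8, and 4.75 and 4.73 in skm4 and skm5, a difference of -0.86 ± 0.15 (limma, adjusted p = 0.0659). Irx5, an Iroquois factor, differed by -0.56 ± 0.12 and Tbx15, a T-box factor, by 0.56 ± 0.12. Of 14 measured genes of muscle position and migration, 3 had an unadjusted p under 0.05 (21.4%, beside 23.5% of all genes). Lbx1, a marker of muscle precursors that migrate into the limb, read 9.90 and 10.05 in nm7 and nm8, and 10.63 and 10.51 in skm4 and skm5, a difference of 0.60 ± 0.13 (limma, adjusted p = 0.0787). Pitx3, a homeodomain factor of muscle and lens, differed by 0.49 ± 0.12 and Tcf7l2, a factor of muscle connective tissue, by -0.48 ± 0.16.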

How the data were processed

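Gene expression was measured on 1-colour Affymetrix arrays, 1 per sample, in 4 samples of normal muscle. Per the submitters' processing notes, the authors ran RMA in Affymetrix Expression Console 1.1, and the deposited table holds log2 values by probe set. The method corrects background, equalises the arrays and summarises probes, and compresses differences near the background. The arrays that were normalized together are not given in the sources used here. The number of arrays limits the precision.

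From 22690 probe sets, 64 controls were left out, and 20380 named exactly 1 gene. The probe set with the highest mean stood for its gene. Differences between title prefixes (skm minus nm) were fitted with limma 3.58.1 in R 4.3.3 over all 12393 genes, with Benjamini-Hochberg adjustment and a threshold of 0.05, 2-sided, and errors are SEs of that fit. The script was tested on simulated data. Spread is the SD over 4 samples.

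The members and lists were chosen with earlier results of these data known. Values in every sample were given by rule for the limb factors, the limb lists, members with a range over 1, called or outlying members and the 3 with the largest moderated t, and other members were added. Up to 3 genes per other list were named by moderated t, with marker genes added. Alternatives covered normalization, probe set choice, dim genes, moderation and each sample left out.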

Additional observations from a re-analysis of the deposited data

How the results depend on the processing

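The 0 called members became 1, Hoxc8, with quantile normalization (adjusted p = 0.0424), the mean of probe sets (0.0493), without _x_at and _s_at probe sets (0.0481), under an intensity trend (0.0176) and at the level of single probe sets (0.0447), while it was 0 without any 1 sample and with each array centred on its median. With only the genes of at least median level, Hoxc8 was left out and 0 of the 6 members kept were called. Over all genes the 4 calls became 186, 92, 142, 1110 and 326 in the same order of settings, 1026 with the filter on dim genes, and 0 to 15 when 1 sample was left out. The 4 members with a range over 1 became 0 among the brighter genes and 2 when probe sets were averaged, and 2 to 4 when 1 sample was left out. The members' median difference was 0.0387 to 0.135 and their median SD 0.18 to 0.25 when 1 sample was left out. With the median of the array as the mark, 6 members stood above it, where 31 stood above TrpnX. When probe sets were averaged, the forelimb list had a deviation of 0.0272 in nm7 and -0.0733 in skm5. Differences that turned sign were small, rested on 1 sample or, for Tbx5, rested on the choice of probe set. Hoxc4 turned to 0.0523 with quantile normalization and 0.0268 with centring. Tbx5 turned to -0.20 when probe sets were averaged, and its other probe set differed by -0.47. With 1 sample left out, the sign turned for Hoxc4 (-0.0603 to 0.0594), Hoxc6 (-0.16 to 0.28) and Hoxa11 (-0.40 to 0.68). The filter left no value for the limb factors. With 1 sample left out, the lone sample of its prefix was assumed to vary like the others. No paired analysis was possible because the samples form 1 group and carry no shared numbers. Group 13, Hoxa3 and the limb factors read below the array medians in every sample, and whether that reduced their differences was not tested.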
